A study of Mus musculus with 2688 samples.

Results

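Microglia of the corpus callosum, the large white matter tract that joins the hemispheres, were compared with microglia of the cortex in CD1 mice at 3 weeks of age. The members are the sorted wells that the labels place in 1 of the 3 corpus callosum replicates or the 3 cortex replicates of that age. Wells were kept when at least 500 genes had a read and at most 20% of the gene counts came from mitochondrially encoded genes. This left 349 of 380 wells, 179 from corpus callosum (59, 62 and 58 cells) and 170 from cortex (58, 58 and 54), of 2402 kept cells in the series. The cells of a region and replicate were summed, which gave 6 of the 51 region samples of the series, and these sums were the unit of every test.

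The mice were wild type by their labels and no treatment is given, so the groups differ in region. Cells had been stained for CD11b, CD45, Ly6C, Ly6G and CD206, sorted singly into plates of 384 wells after perfusion and a Percoll gradient, and read by SmartSeq2, which covers full transcripts. The series states that several regions were taken from the same mice, but no label says that a replicate number stands for a mouse, so p-values describe the spread between these region samples. All corpus callosum cells lay on a plate shared with the cerebellum cells of 3 weeks, and all cortex cells on another plate shared with the hippocampus cells. Region and plate therefore cannot be told apart in the direct comparison, and the values of cerebellum and hippocampus are given beside it.

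Microglia are the resident macrophages of the brain parenchyma. In grey matter they survey synapses and can tag them with complement, whose C1q component they supply. In developing white matter, microglia that engulf cells and myelin debris have been described, with Spp1, Gpnmb, Clec7a, Itgax, Lpl and Igf1 among their marker genes and with lower homeostatic genes such as Tmem119. Myelination of the corpus callosum of the mouse is well under way at this age.

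The corpus callosum libraries were deeper. They held 14940696 to 21508927 gene counts per region sample, against 7146319 to 8870000 in cortex. Median genes per cell were 2867 ± 88.0 (SD, n = 3) and 2582 ± 28.3 (SD, n = 3), with no overlap (exact two-sided permutation p = 0.1, the smallest that 3 against 3 can give). Cells of at least 30845 reads were also thinned to that number, which left out shallower cells, mostly of cortex. The medians were then 2232 and 2225 (exact permutation p = 0.7). The 8 microglia markers, among them P2ry12, Sall1 and Siglech, summed to 64043 to 69255 CPM, counts scaled to the library size, in corpus callosum and 62401 to 70248 in cortex.

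In the sums of the 2 regions, 3 genes of 11800 tested passed an adjusted p of 0.05 (0.0254%). Of these, 2 were higher in corpus callosum (0.0169% of genes tested), Rnf13 among them, and C1qc was lower (0.00847%). At an unadjusted p under 0.05 there were 820 genes (6.95%), 483 higher (4.09%) and 337 lower (2.86%). The 6 region samples did not overlap between the regions for 14.5% of genes. The median difference over all genes tested was 0.01 on the log2 scale.

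Rnf13, which encodes a ubiquitin ligase of endosomal and lysosomal membranes (chromosome 3, 57736062 to 57835233, GRCm38), had 532, 430 and 487 CPM in the corpus callosum samples. In cortex it had 149, 243 and 193 CPM. Every corpus callosum sample was above every cortex sample, and the fitted difference was 2.48-fold (log2 1.31 ± 0.18 SE, adjusted p = 0.0158). Reads of Rnf13 were found in 88.7% ± 2.71 (SD, n = 3) of corpus callosum cells and 72.3% ± 4.74 (SD, n = 3) of cortex cells thinned to equal reads, and in 94.4% and 81.9% unthinned. The difference was thus carried by many cells.

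C1qc encodes a chain of C1q, the recognition molecule that starts the classical complement pathway. It had 2042, 1911 and 2114 CPM in corpus callosum and 3169, 3301 and 3196 CPM in cortex. The level in cortex was 1.59-fold higher (log2 −0.67 ± 0.08 SE, adjusted p = 0.0121), and no samples overlapped. The other 2 chains, which did not pass the threshold, had values of the same direction. C1qa had 3258, 2764 and 3155 CPM against 4320, 4284 and 5253 (log2 −0.59 ± 0.10 SE, adjusted p = 0.0598). C1qb had 3226, 3346 and 3622 CPM against 4386, 4824 and 5404 (log2 −0.52 ± 0.10 SE, adjusted p = 0.0823). For each of the 3 chains the highest corpus callosum sample lay below the lowest cortex sample.

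The 3 chains are encoded side by side on the minus strand of chromosome 4, C1qb at 136880129 to 136886187, C1qc at 136889804 to 136893065 and C1qa at 136895917 to 136898803 (GRCm38). Because these neighbours had differences in the same direction, the sequence just before the start is shown for the 2 that RefSeq's promoter table (GRCm38.p6) holds, chr4:136886201-136886450 for C1qb and chr4:136893066-136893164 for C1qc, both on the minus strand and outside the annotated gene. Capitals mark GAGGAA or its reverse complement TTCCTC, the core bound by PU.1, the myeloid transcription factor encoded by Spi1.
C1qb: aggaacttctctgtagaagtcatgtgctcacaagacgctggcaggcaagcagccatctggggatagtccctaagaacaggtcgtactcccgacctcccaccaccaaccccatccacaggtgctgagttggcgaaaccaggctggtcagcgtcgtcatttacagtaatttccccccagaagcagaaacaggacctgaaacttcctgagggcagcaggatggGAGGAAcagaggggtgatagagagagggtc
C1qc: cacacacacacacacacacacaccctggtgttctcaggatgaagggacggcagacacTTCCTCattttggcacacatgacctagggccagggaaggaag
The motif stands once in the forward direction in the 250 bases of C1qb and once in reverse in the 99 bases of C1qc. Searched on both strands, it was in 23.3% of 32851 promoters of the table over 250 bases and in 9.91% over 99 bases, so a match is common and describes only the letters. Spi1 itself had 316 ± 24.6 CPM (SD, n = 3) in corpus callosum and 431 ± 37.9 (SD, n = 3) in cortex, without overlap (log2 −0.45 ± 0.16 SE, adjusted p = 0.533).

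**Figure D1:**
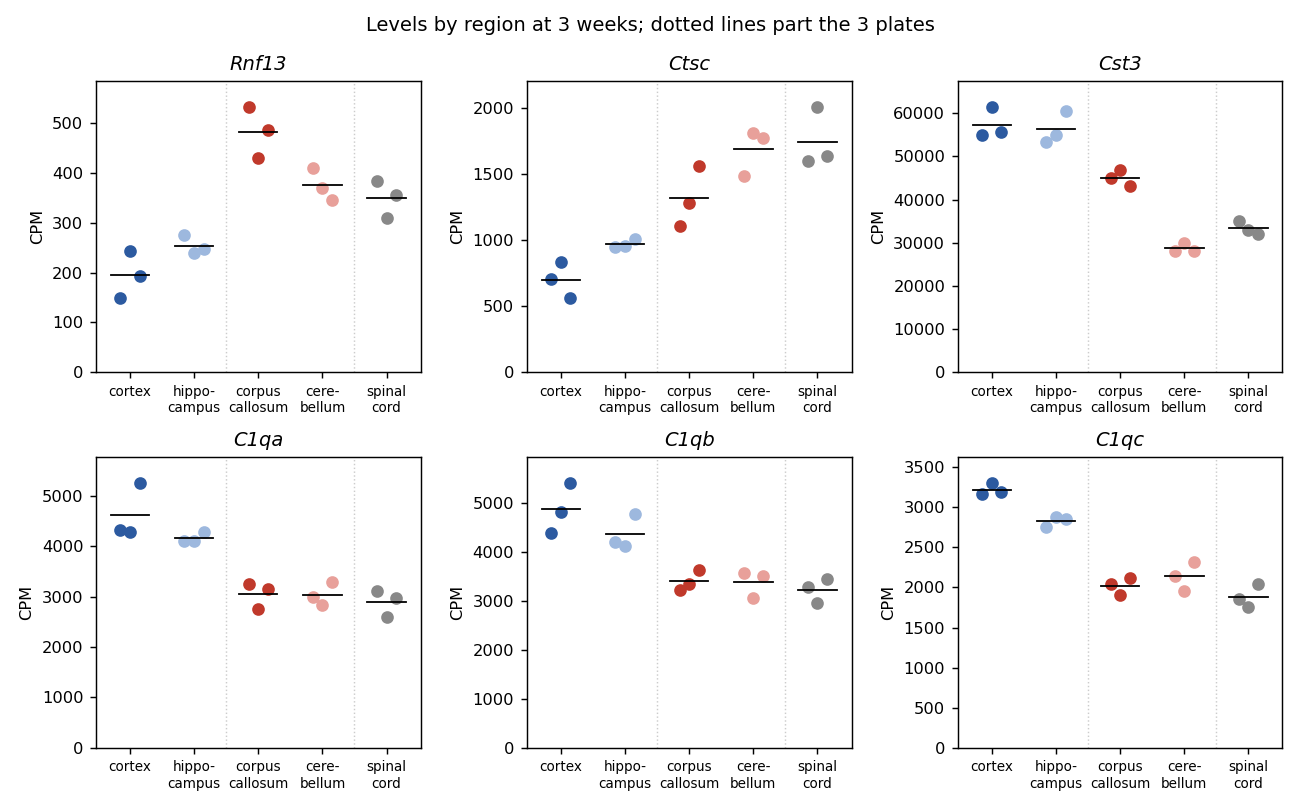
CPM (y axis, from 0) of Rnf13, Ctsc, Cst3 and the 3 C1q genes in every region sample of 3 weeks (points; 3 per region, horizontal lines are means), with regions on the x axis and dotted lines between plates. Corpus callosum and cortex do not overlap for any of the 6 genes; the cerebellum mean differs from the hippocampus mean in the same direction in each, and Cst3 is lower in cerebellum (mean 28724) than in corpus callosum (mean 45009).

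The calls were sensitive to which samples entered. With any of the 3 corpus callosum samples or cortex sample 3 left out, no gene passed (0 called in edgeR, with 877 to 938 at an unadjusted p under 0.05), and the adjusted p of C1qc was 0.0579 to 0.0888. Without cortex sample 1 C1qc kept its call (adjusted p = 0.0380) and Rnf13 did not (adjusted p = 0.0596). Without cortex sample 2, 8 genes passed, C1qc (adjusted p = 0.0292) and Rnf13 (0.0124) among them. With the spread taken from the 6 region samples alone, 0 genes passed in edgeR and 799 had an unadjusted p under 0.05, whereas DESeq2 on all 15 samples called 123.

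By the rule that named genes of smallest p, 8 further genes were higher in corpus callosum without reaching the threshold. The cathepsin gene Ctsc, whose product activates granule proteases, had 1104, 1279 and 1557 CPM against 701, 835 and 562 in cortex (log2 0.91 ± 0.16 SE, adjusted p = 0.0598). Ccl9, a chemokine gene, had 255, 221 and 286 CPM against 78.1, 108 and 84.5 (log2 1.49 ± 0.28 SE, adjusted p = 0.0789). Reads of Ccl9 were in 57.1% of corpus callosum cells and 34.2% of cortex cells at equal reads. Igsf6, an immunoglobulin superfamily receptor gene of myeloid cells, had 138, 101 and 192 CPM against 28.1, 22.9 and 41.7 (log2 2.22 ± 0.41 SE, adjusted p = 0.0789). It was read in fewer cells, 22.7% against 7.33% at equal reads. Ep300, which encodes a histone acetyltransferase, had 263, 164 and 208 CPM against 85.4, 103 and 71.1 (log2 1.29 ± 0.23 SE, adjusted p = 0.0789). The apoptosis gene Pmaip1 had 26.4, 19.5 and 19 CPM in corpus callosum and a single read in all of cortex, and its 1233 corpus callosum reads came from 12 of 179 cells. Pmaip1 could pass the filter on low counts only through corpus callosum, which fixed its direction. The other 3, mt-Rnr2, mt-Rnr1 and mt-Nd1, are mitochondrially encoded and are described with the mitochondrial share.

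On the lower side 9 genes were named in the same way, C1qa and C1qb among them. Cst3, which encodes the secreted protease inhibitor cystatin C and was among the most highly expressed genes of these cells, had 45037, 46871 and 43121 CPM against 54879, 61336 and 55684 in cortex (log2 −0.35 ± 0.06 SE, adjusted p = 0.0598). Lag3, an immune checkpoint receptor gene that microglia also express, had 502, 604 and 644 CPM against 845, 1057 and 1158 (log2 −0.81 ± 0.17 SE, adjusted p = 0.155). Unc93b1, needed to deliver endosomal Toll-like receptors, had 1660, 1595 and 1474 CPM against 2002, 2107 and 2209 (log2 −0.42 ± 0.08 SE, adjusted p = 0.0989). Arrb2, which encodes a beta-arrestin, had 77.4, 66.2 and 53.3 CPM against 156, 118 and 249, and was read in 48.0% against 74.4% of cells at equal reads. Rgl2, Fbrsl1 and the transcription factor gene Lyl1 had log2 differences of −0.83, −0.95 and −0.82. In each of these genes the 3 cortex samples lay above the 3 corpus callosum samples, as the rule required.

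Across the same plates but in other samples, cerebellum differed from hippocampus at 60 of 11800 genes (0.508%), 21 higher (0.178%) and 39 lower (0.331%). All 20 genes named by value had the same sign there as between corpus callosum and cortex, against 58.2% of all genes tested and 75.5% of the 820 genes at an unadjusted p under 0.05. Of the 20, 8 were called between cerebellum and hippocampus. The mean of Rnf13 was 376 CPM in cerebellum and 254 in hippocampus and that of C1qc 2140 and 2829. These gaps were smaller than those between corpus callosum and cortex, with log2 differences of 0.57 and −0.40, and neither passed (adjusted p of 0.216 and 0.0534).

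The contrast in which a plate term cancels takes corpus callosum minus cerebellum on the one plate and subtracts cortex minus hippocampus on the other. A single gene passed it, Cst3 (0.00847%), with a log2 value of 0.61 ± 0.08 SE (adjusted p = 0.0419). Cst3 had a mean of 28724 CPM in cerebellum and 56244 in hippocampus, and the gap across the plates was wider there than between corpus callosum and cortex. The call was lost with the counts as deposited and with another size factor, and DESeq2 called 51 genes in this contrast. Within the plate, Cst3 was higher in corpus callosum than in cerebellum (log2 0.64, adjusted p = 0.000386), the only gene called between those regions (0.00847%). Rnf13 and C1qc had log2 values of 0.74 ± 0.25 and −0.28 ± 0.12 SE in the plate-free contrast, neither past the threshold. Between hippocampus and cortex, on the other plate, 0 genes passed in edgeR, with 542 at an unadjusted p under 0.05 (4.59%); DESeq2 was not run there.

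**Figure D2:**
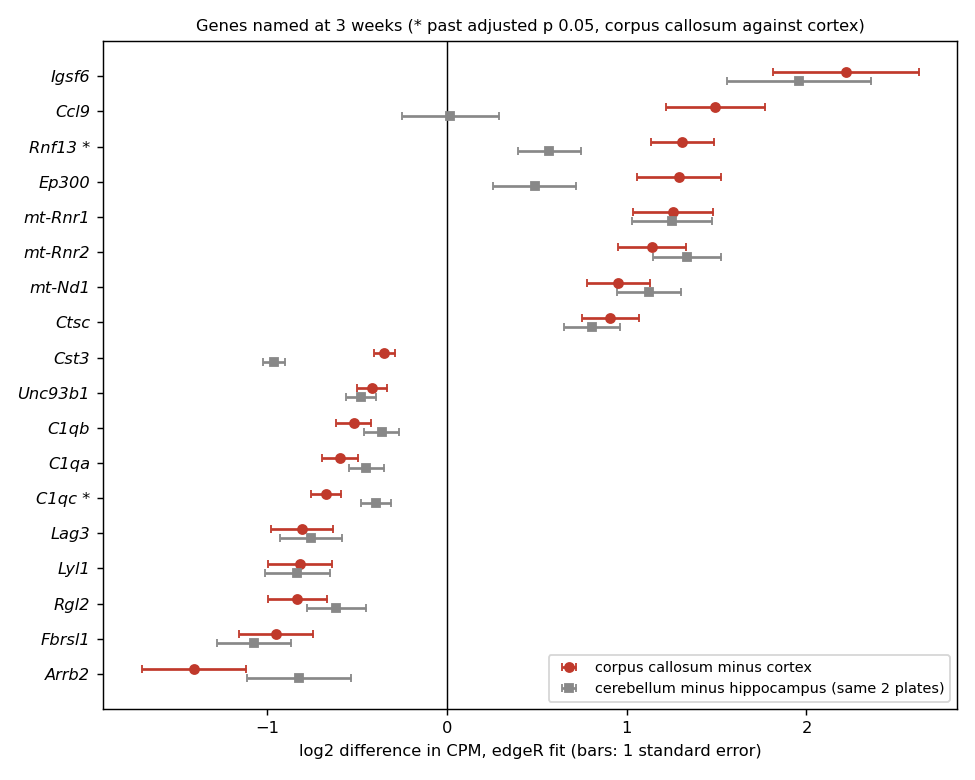
Fitted log2 differences (x axis; bars are 1 standard error) of 18 of the 20 genes named by value (y axis; Pmaip1, with 1 cortex read, is among those left out) for corpus callosum minus cortex (circles) and cerebellum minus hippocampus (squares), each from 3 region samples a region. All 18 point the same way in both; Ccl9 has 1.49 in the former and 0.02 in the latter.

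Genes of white matter and phagocytic microglia leaned higher in corpus callosum, but none passed the threshold. Of 30 genes on the list 26 were tested; 7 were higher and 0 lower at an unadjusted p under 0.05, where all genes gave 4.09% and 2.86%. For 8 the samples did not overlap with corpus callosum higher, and for 1 with it lower, against 7.73% and 6.81% of all genes. The median log2 difference was 0.69, and the same genes had a median of 0.79 between cerebellum and hippocampus. With cells thinned to equal reads the median of the list was 0.24. Spp1, Axl and Igf1, described below, could pass the filter on low counts only through corpus callosum, so their direction was fixed by it.

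Apoe, the main lipid carrier made by glia, had 2801, 2989 and 2930 CPM against 1810, 2674 and 1843 in cortex, close to each other at cortex sample 2 (log2 0.46 ± 0.25 SE, adjusted p = 0.821). Cd9, a tetraspanin gene, had 738, 735 and 870 CPM against 393, 636 and 414 (log2 0.70 ± 0.18 SE, adjusted p = 0.259). Its mean in cerebellum, 1154 CPM, was higher than in corpus callosum. Lpl, encoding lipoprotein lipase, had 35.5, 42.0 and 72.7 CPM against 14.2, 10.0 and 2.72 (log2 2.48 ± 0.70 SE, adjusted p = 0.311). Itgax, the CD11c gene, had 21.9, 34.6 and 31.4 CPM against 5.43, 11.1 and 1.07 (log2 2.32 ± 0.88 SE, adjusted p = 0.546). Neither Lpl nor Itgax was frequent: each had reads in 20 of 179 corpus callosum cells and 6 of 170 cortex cells.

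Spp1, which encodes osteopontin, had 2.92, 46.0 and 25.5 CPM in corpus callosum and no read in cortex, a level at least 204-fold higher when cortex is set at 3 counts over the group (adjusted p = 0.308). Its reads came from 14 corpus callosum cells, and in each sample the top cell held 92.2%, 27.7% and 76.9% of them. With 0 of 170 cortex cells, a share of up to 1.76% remains possible. In cerebellum Spp1 had 95.3, 3540 and 123 CPM, so that its mean of 1253 rested on the second sample, while each of the 3 lay above the corpus callosum samples. Axl, a phagocytic receptor gene, had 1.91, 96.2 and 98.9 CPM against 11.1, 0 and 0, so the regions overlapped and the low corpus callosum sample was the first of the 3. The remaining markers were scarce. Clec7a had reads in 2 corpus callosum cells and 1 cortex cell, Gpnmb in 2 and 4, and Lgals3 in 3 and 0, and none of these genes passed the filter on low counts. Igf1 had 360 reads in 8 corpus callosum cells and 9 reads in 3 cortex cells. Cst7 had 11.2 ± 8.0 CPM (SD, n = 3) in corpus callosum and 12.6 ± 12.9 (SD, n = 3) in cortex.

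**Figure D3:**
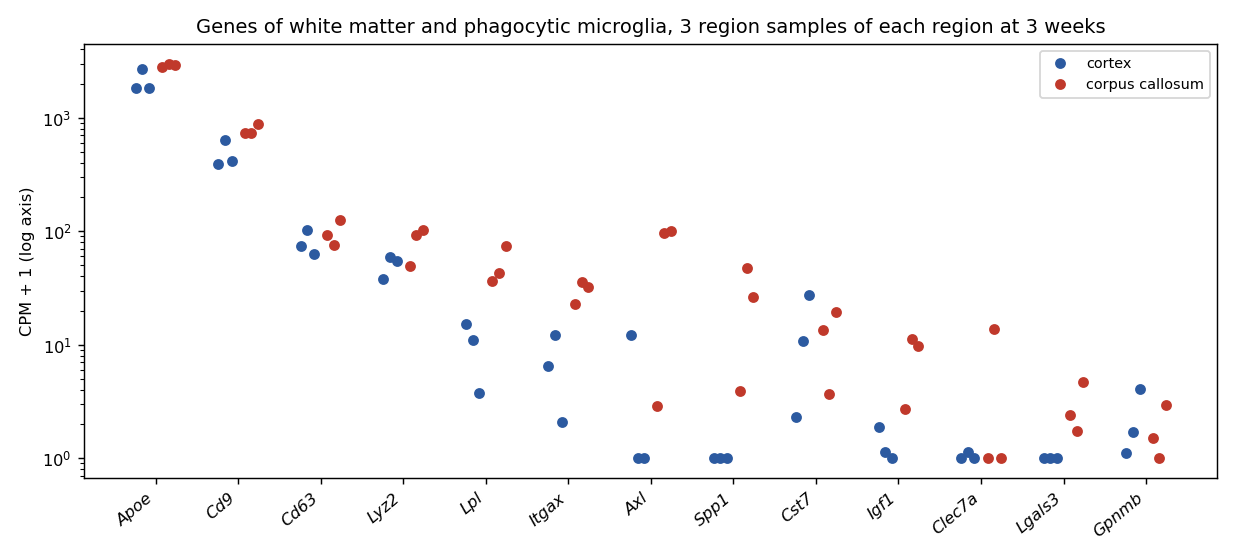
CPM plus 1 (y axis, log scale) of 13 genes of white matter and phagocytic microglia (x axis) in each of the 3 cortex and 3 corpus callosum samples of 3 weeks (points). Apoe and Cd9 are high in both regions, Lpl and Itgax separate without overlap, Spp1 is at 0 CPM in the 3 cortex samples, and Clec7a, Lgals3 and Gpnmb are near 0 in both.

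Homeostatic genes split. All 26 of the list were tested: 2 passed the threshold, of which C1qc fell below cortex, while 5 were higher and 13 lower at an unadjusted p under 0.05 (4.09% and 2.86% of all genes). The samples did not overlap for 3 higher and 13 lower members (7.73% and 6.81% of all genes), and the median log2 difference was −0.22 (−0.38 between cerebellum and hippocampus). Tmem119, a membrane protein gene used to mark microglia, had 6214, 5821 and 6161 CPM against 7723, 8141 and 9360 in cortex (log2 −0.47 ± 0.11 SE, adjusted p = 0.232). Crybb1, a crystallin gene of young microglia, had 162, 205 and 137 CPM against 380, 330 and 276 (log2 −0.97 ± 0.24 SE, adjusted p = 0.259). Sparc, which encodes a matrix protein, had 8485 against 10352 CPM on average and Selplg, the P-selectin ligand gene, 7511 against 8924, both without overlap. On the other side the lysophosphatidylserine receptor gene Gpr34 had 3656, 4859 and 5432 CPM against 2457, 3689 and 3175 (log2 0.58 ± 0.15 SE, adjusted p = 0.259), and the lowest corpus callosum sample lay just below the highest cortex sample. The purinergic receptor gene P2ry13 had means of 3769 and 3185 CPM.

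The receptors most often used to identify microglia differed little. P2ry12 had 9703, 11283 and 10955 CPM in corpus callosum and 8320, 10181 and 10003 in cortex (log2 0.16 ± 0.09 SE). Cx3cr1, the fractalkine receptor gene, had 7476, 8327 and 7512 CPM against 6874, 7493 and 8493 (log2 0.03 ± 0.10 SE), a difference whose sign changed with the settings. Csf1r, the receptor gene for the growth factor that keeps microglia alive, had 16461, 16426 and 15966 CPM against 16736, 19760 and 19665 (log2 −0.20 ± 0.07 SE, adjusted p = 0.535). For Csf1r every cortex sample lay above every corpus callosum sample.

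Among lysosomal genes, 29 of 30 were tested and 1 passed. At an unadjusted p under 0.05, 6 were higher and 3 lower (4.09% and 2.86% of all genes), with a median log2 difference of 0.00. The higher members included Ctsc, Lamp2, a lysosomal membrane protein gene (847 ± 103 against 537 ± 45.4 CPM; SD, n = 3), the cathepsin genes Ctsl (956 against 721 CPM) and Ctss (9475 against 7694 CPM), and Npc1, a cholesterol exporter gene (304 against 199 CPM). Psap, which encodes the saposin precursor, had 2604 ± 317 CPM (SD, n = 3) in corpus callosum and 3474 ± 112 (SD, n = 3) in cortex, Laptm5 had 4848 against 6082 and Man2b1 1915 against 2262. Cd68, a lysosomal glycoprotein gene often read as a sign of phagocytic activity, had 935 against 1111 CPM (log2 −0.25 ± 0.13 SE).

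Genes of lipid handling and cholesterol efflux were tested in 24 of 30 cases; none passed, and 6 were higher and 0 lower at an unadjusted p under 0.05, with a median log2 difference of 0.47. The share of all genes was 4.09% and 2.86%. The median was 0.17 with cells thinned to equal reads, 0.29 without corpus callosum sample 3 and 0.81 with no filter on low counts. Beside Lpl these included the scavenger receptor gene Scarb1 (65.6, 57.3 and 88.9 CPM against 30.5, 35.3 and 24.6), the cholesterol esterifying enzyme gene Soat1 (177 against 86.9 CPM), Npc1 and Ptgs1. The efflux transporter genes Abca1 and Abcg1 had log2 differences of 0.14 ± 0.37 and −0.05 ± 0.37 SE. Of 20 cholesterol synthesis genes 17 were tested, with 4 higher and 0 lower at an unadjusted p under 0.05 (4.09% and 2.86% of all genes). By sign alone 9 were above 0 and 8 below. Their median was 0.20, beside 0.58 between cerebellum and hippocampus. It ran from −0.069 without corpus callosum sample 2 to 1.04 with a replicate block on the 6 samples alone. The 4 higher genes included Srebf2, the transcription factor gene that controls the pathway (45.0, 50.0 and 47.9 CPM against 23.9, 15.1 and 9.58), Hmgcs1 (86.9, 34.5 and 39.3 against 12.3, 20.7 and 31.1) and Mvk. Mvk was read in 4 of 170 cortex cells, and in a cortex sample not at all. It could therefore not pass the filter on low counts through cortex alone.

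Chemokine and cytokine genes leaned higher in corpus callosum. Of 20 genes 13 were tested and 12 were above 0 on the log2 scale, as were 6022 of all 11800 genes. None passed, and 5 were higher and 0 lower at an unadjusted p under 0.05 (4.09% and 2.86% of all genes). The median was 1.20. Without plate columns 1 and 2 the median was 0.62. Between cerebellum and hippocampus the median was 0.96. Ccl4, a chemokine that attracts immune cells, had 228, 95 and 20.1 CPM against 0, 2.29 and 0 in cortex (adjusted p = 0.239), and its neighbour Ccl3 had 126, 25.9 and 64.4 CPM against 0, 16.6 and 0. Both were at 0 in all cortex samples but the second. They could thus pass the filter on low counts only through corpus callosum, which fixed their direction in the counts above. The reads of both came from few cells. Ccl4 was read in 11 of 179 corpus callosum cells and 1 of 170 cortex cells, and in each corpus callosum sample a single cell held 98.7%, 99.8% and 62.3% of its reads. Ccl6 (211, 194 and 252 CPM against 182, 89.7 and 131) was more widely read, in 56.7% against 44.6% of cells at equal reads. Ccl12 had 18.8, 89.9 and 35.5 CPM against 2.55, 20.4 and 9.35, which overlap.

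Of 24 type I interferon response genes 18 were tested and 17 had a log2 difference above 0, as did 6022 of all 11800 genes. The median was 1.19, beside 0.99 between cerebellum and hippocampus. Only Ifit3 had an unadjusted p under 0.05 (6.15, 10.3 and 7.32 CPM against 0, 0.571 and 0), beside 4.09% of all genes. At these levels Ifit3 could pass the filter on low counts only through corpus callosum. The median ran from 0.79 with cells thinned to equal reads to 3.13 without cortex sample 2. Levels were low throughout; Irf7 had 52.6 against 12.1 CPM. MHC class I genes gave 2 of 14 tested, both higher (4.09% of all genes), B2m (1952, 1838 and 2172 CPM against 1313, 1595 and 1421) and H2-M3. The MHC class I median was 0.28, from 0.042 without cortex sample 1 to 0.43 without cortex sample 2. MHC class II genes gave 0 of 8. Immediate early and stress genes, which respond to dissociation as well as to signals in tissue, gave 4 higher and 1 lower of 19 tested (4.09% and 2.86% of all genes). Some of the higher members had reads in at most 1 of 170 cortex cells. These could pass the filter on low counts only through corpus callosum, which fixed their direction. Atf3 had 48.9, 126 and 68.2 CPM against 3.21, 4.71 and 0, read in 14 corpus callosum and 4 cortex cells. With a cortex sample at 0, Atf3 could not pass that filter through cortex alone. Klf6 had 240, 169 and 160 CPM against 136, 124 and 117. The widely expressed Jun had 98.0 against 96.9 CPM (log2 0.02 ± 0.31 SE). Whether dissociation had a part in these values was not tested.

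Of the 24 microglia and macrophage transcription factor genes tested, 1 was higher and 4 were lower at an unadjusted p under 0.05; 1 of 24 is close to the 4.09% of all genes that were higher, and 2.86% were lower. Zeb2, which encodes a factor of macrophage identity, had 323, 331 and 346 CPM against 210, 167 and 153 in cortex (log2 0.92 ± 0.27 SE, adjusted p = 0.335). The lower ones included Spi1, Cebpa (82.4 against 129 CPM) and Rest (30.2 against 68.4). Sall1, the factor gene that sets microglia apart from other macrophages, had 554 against 503 CPM (log2 0.14 ± 0.25 SE). Of 60 cytosolic ribosomal protein genes 0 were higher and 2 lower, close to the 2.86% of all genes, with a median of −0.16 (−0.27 without corpus callosum sample 1, −0.11 with no filter on low counts). Of 56 nuclear genes of oxidative phosphorylation 0 were higher and 5 lower (Sdhc, Cox4i1, Ndufa8, Atp5a1 and Atp5d), with a median of −0.17 that ran from −0.29 with cells thinned to equal reads to −0.093 without cortex sample 2. It was −0.094 without corpus callosum sample 3 and −0.10 without cortex sample 1. Of 19 actin genes tested 2 were higher (Capza2, Wdr1) and 2 lower, beside 4.09% and 2.86% of all genes. The lower were Actb with 8261 against 10211 CPM and Cotl1 with 186 against 310. Glycolysis gave 0 of 16 tested. S phase genes gave 0 of 18 and G2/M genes 0 of 7, where Top2a had 5.37 against 1.01 CPM and Cdk1 9.96 against 6.74. The G2/M median was 1.58, beside −0.22 between cerebellum and hippocampus. It ran from 0.64 without plate columns 1 and 2 to 3.58 with a replicate block on the 6 samples alone.

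The remaining lists gave few members, and their counts are read against 4.09% of all genes higher and 2.86% lower. Of 11 growth factor and trophic ligand genes tested, 1 was higher at an unadjusted p under 0.05, the phagocytosis bridging ligand gene Pros1 (831, 805 and 806 CPM against 571, 470 and 678). Of 23 genes of synapse pruning and phagocytic receptors, 3 were higher (Axl, Gpr34 and Havcr2) and 1 lower, the scavenger receptor gene Stab1 (178, 206 and 142 CPM against 289, 274 and 492). Axl could pass the filter on low counts only through corpus callosum, as said above. Mertk and Trem2, both receptors in clearance of dying cells, had log2 differences of 0.10 ± 0.23 and −0.16 ± 0.17 SE. TGF-beta signalling gave 1 higher of 15, the receptor gene Tgfbr1 (1611 against 1337 CPM), and 1 lower, Eng (293 against 444). Of 16 genes for potassium channels and purinergic signalling, 2 were higher, among them the microglial channel gene Kcnk13 (301 against 191 CPM), and 1 was lower, P2ry6 (651 against 821). Among 8 complement genes tested, the C1q chains were the 3 lower members and none was higher; the receptor gene Itgam had 1299 against 1070 CPM and C3ar1 206 against 150.

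**Figure D4:**
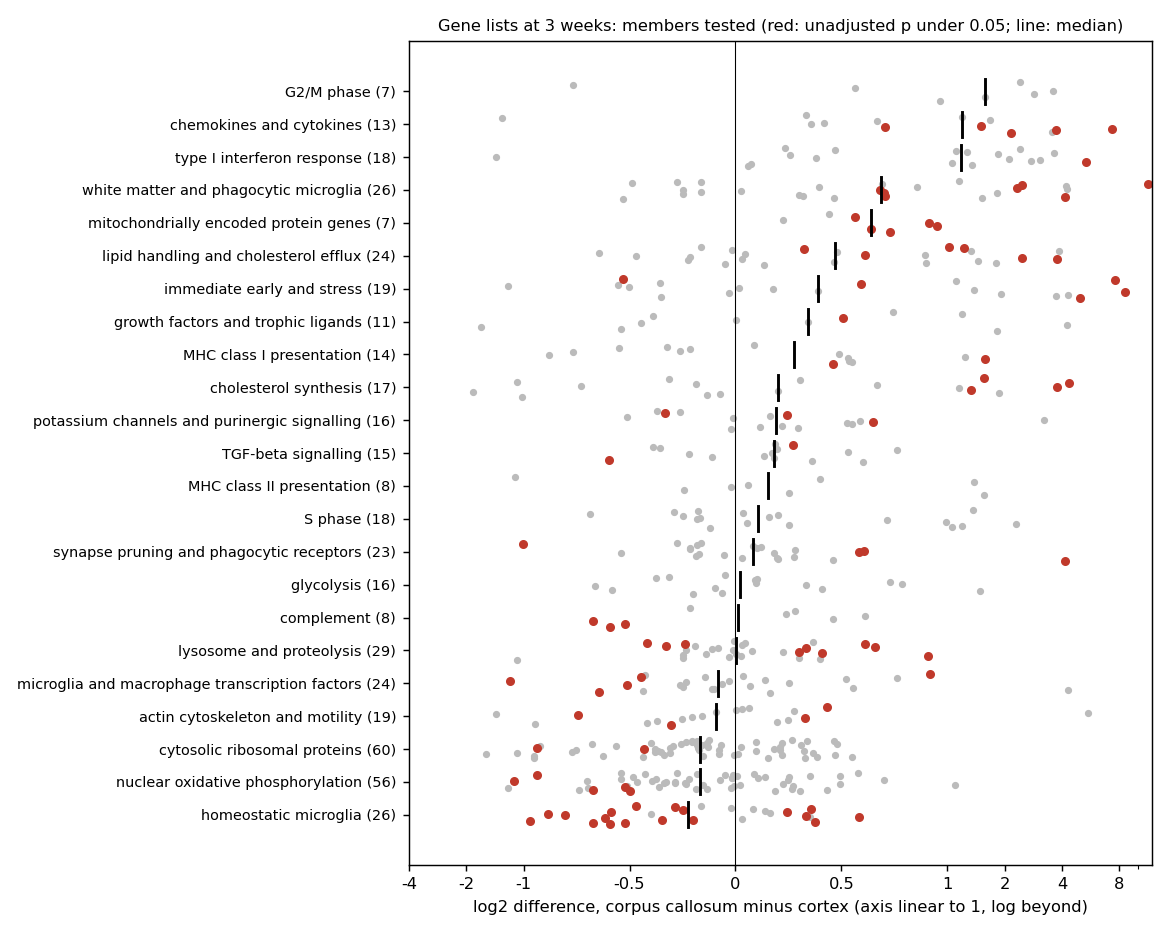
Log2 difference, corpus callosum minus cortex (x axis, linear to 1 and logarithmic beyond), of each tested member (points) of the gene lists (y axis, number tested in brackets); red points have an unadjusted p under 0.05 and black lines are medians. The G2/M list has the highest median, 1.58 (0.64 to 3.58 over the alternatives), with 7 genes tested and no red point. Chemokine, interferon and white matter lists have medians of 1.20, 1.19 and 0.69 (0.62 to 1.64, 0.79 to 3.13 and 0.24 to 0.85 over the alternatives). The homeostatic list has the lowest median, −0.22, with red points on both sides.

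Mitochondrially encoded genes were higher on the corpus callosum plate. The median share of mitochondrial counts per cell was 1.84% ± 0.339 (SD, n = 3) in corpus callosum and 0.754% ± 0.0908 (SD, n = 3) in cortex (exact permutation p = 0.1), without overlap. In cerebellum the 3 medians were 1.31% to 1.90% and in hippocampus 0.767% to 0.967%, so the regions of a plate lay close to each other. The ribosomal RNA genes mt-Rnr2 and mt-Rnr1 were among those named by value. The former had 7656, 8562 and 9451 CPM against 4519, 4008 and 3119 in cortex (log2 1.14 ± 0.19 SE, adjusted p = 0.0598), and the latter 380, 457 and 547 against 232, 223 and 124. mt-Nd1, a subunit gene of complex I, had 2544, 3101 and 2998 CPM against 1520, 1777 and 1166 (log2 0.95 ± 0.18 SE, adjusted p = 0.0789). Between cerebellum and hippocampus all 3 were called, with log2 differences of 1.33, 1.25 and 1.12 for mt-Rnr2, mt-Rnr1 and mt-Nd1. In the plate-free contrast they had −0.19 ± 0.26, 0.01 ± 0.31 and −0.17 ± 0.25 SE. Of 13 mitochondrially encoded protein genes 7 were tested. At an unadjusted p under 0.05, 5 were higher and 0 lower (4.09% and 2.86% of all genes). The median of the 7 was 0.64, beside 0.75 for cerebellum against hippocampus. This list was added after the values had been seen.

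The nuclear long noncoding RNAs followed the same order. Malat1 had 2856, 2836 and 2557 CPM in corpus callosum and 2225, 2247 and 1900 in cortex (log2 0.37 ± 0.09 SE, adjusted p = 0.216), with means of 3865 in cerebellum and 2005 in hippocampus. Xist had 1007, 1030 and 1012 CPM against 662, 633 and 605 (log2 0.68 ± 0.13 SE, adjusted p = 0.0975), with 1231 in cerebellum and 716 in hippocampus. Both were chosen after their values were seen. The part of the plate, or of depth, in the results of the other genes was not tested beyond the contrasts given.

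**Figure D5:**
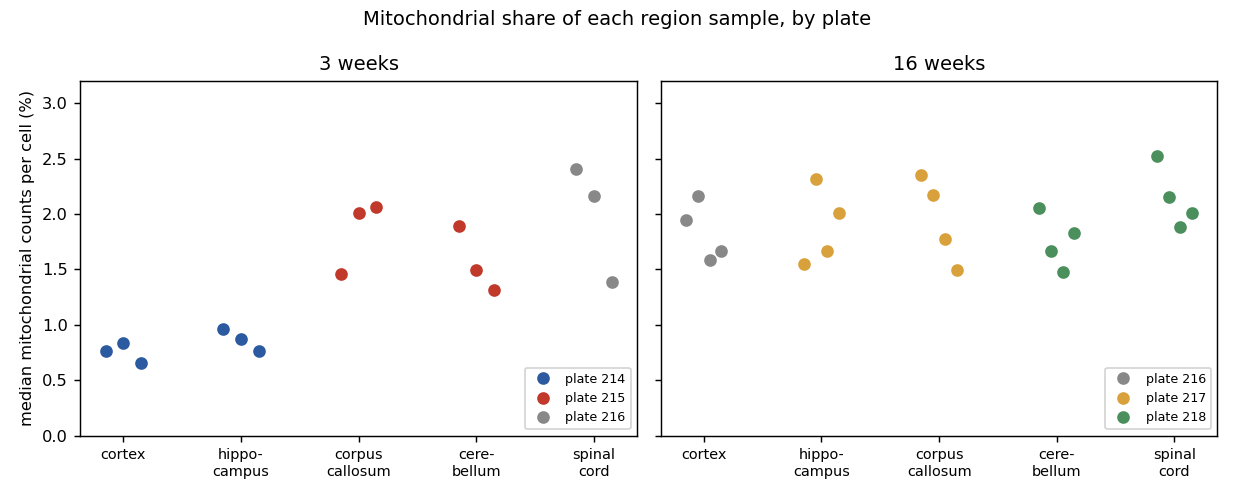
Median percent of gene counts from mitochondrially encoded genes per cell (y axis, from 0) in each region sample (points) of 3 weeks (left; 3 per region) and 16 weeks (right; 4 per region), with regions on the x axis and colours for plates. At 3 weeks cortex and hippocampus, on the same plate, lie at 0.658% to 0.967%, below corpus callosum and cerebellum at 1.31% to 2.07%; at 16 weeks corpus callosum (1.5% to 2.35%) and cortex (1.58% to 2.16%) overlap.

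Cells with enough reads were also thinned to the same 30845 reads before summing, so that deep cells did not weigh more. On this input 45 of 9313 genes passed, 25 higher and 20 lower. They included the 3 genes called without thinning. C1qa and C1qb passed on this input too (adjusted p = 0.00289 and 0.00536), so that all 3 chains fell below cortex there, with log2 values of −0.67, −0.57 and −0.74 for C1qa, C1qb and C1qc. Tmem119 (−0.53), Lag3 (−0.96), Selplg (−0.36) and Cst3 (−0.47) fell as well. Higher calls included Ctsc (0.99), Lamp2 (0.75), Ccl9 (1.5), Gpr34 (0.77), Pros1 (0.65), Zeb2 (1.11) and Ly86 (0.61), a gene for a partner of a Toll-like receptor relative. Ccl4 and Cybb, a subunit gene of the phagocyte NADPH oxidase, were called too, with Cybb read in 5 of 179 corpus callosum cells and 0 of 170 cortex cells. Both could pass the filter on low counts only through corpus callosum, which fixed their direction. The same holds for Pmaip1, another of the higher calls. Of the 45, 5 were mitochondrially encoded. All 45 had the same sign between cerebellum and hippocampus, against 58.2% of all genes tested without thinning. Some of those differences were close to 0, such as 0.02 for Ccl9 and 0.09 for Cnbp. The thinned input left out 35 of the 349 cells as too shallow, most of them from cortex. It held 58, 62 and 57 of the 59, 62 and 58 corpus callosum cells. In cortex it held 43, 45 and 49 of 58, 58 and 54, so the shallow cortex cells are missing from it.

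The same regions at 16 weeks came from 4 region samples each, on other plates. There 1 of 11199 genes passed (0.00893%), Slc34a2, a phosphate transporter gene, with means of 3080 ± 246 CPM (SD, n = 4) in corpus callosum and 1591 ± 177 (SD, n = 4) in cortex (log2 0.96, adjusted p = 0.0117). At 3 weeks Slc34a2 had 1375 and 1369 CPM (log2 0.01 ± 0.20 SE). Rnf13 and C1qc had smaller gaps at 16 weeks. Rnf13 had 363 ± 200 CPM against 360 ± 49.1 (SD, n = 4; log2 0.02 ± 0.30 SE) and C1qc 1988 ± 83.5 against 2350 ± 232 (SD, n = 4; log2 −0.23 ± 0.09 SE). The difference between the ages was tested in edgeR over all genes and 0 passed, with 539 at an unadjusted p under 0.05 (4.57%); the adjusted p was 0.812 for Rnf13 and 0.583 for C1qc. Lag3, with 225 against 463 CPM, and Ccl9, with 163 against 73.3 CPM, had log2 differences of −1.03 ± 0.41 and 1.16 ± 0.60 SE at 16 weeks, close to those at 3 weeks but not past the threshold.

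Sums of the markers of other cells overlapped between the regions except for endothelial markers. Border macrophage markers summed to 14.8 to 36.4 CPM in corpus callosum and 1.29 to 55.8 in cortex over 10 genes, with Lyve1, F13a1 and Fcna at 0 and only 1 gene past the filter on low counts. Oligodendrocyte markers, 12 genes, summed to 479 to 572 CPM and 469 to 609, most of it from Trf (306 against 331 CPM) and Cnp (112 against 131), which microglia can express. Mbp, a myelin gene, was low and had 27.1, 76.0 and 61.4 CPM in corpus callosum and 16.2, 32.4 and 6.86 in cortex, which overlap (log2 1.57 ± 0.73 SE, adjusted p = 0.710), and was read in 16.9% against 8.23% of cells at equal reads (21.8% and 8.71% unthinned). Whether this RNA was taken up, carried over or made by the sorted cells was not tested. Endothelial markers summed to 373 to 404 CPM against 454 to 713, mostly from Bsg (371 ± 21.2 against 559 ± 123; SD, n = 3), with Itm2a, Ly6c1 and Esam at 0. Bsg had reads in 93.3% of corpus callosum cells and 93.6% of cortex cells unthinned, so it was not confined to a few cells. All 3 endothelial markers tested were lower in corpus callosum without overlap, with a median log2 difference of −2.33; Bsg had an unadjusted p of 0.00259, and Pecam1 (11.8 against 59.3 CPM) and Flt1 (0.623 against 3.62 CPM) had 0.121 and 0.193. Their part in the results was not tested. The sums of astrocyte, neuron, oligodendrocyte precursor, monocyte, neutrophil, T and NK, B cell, erythroid and ependymal markers overlapped between the regions.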

How the data were processed

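The authors deposited whole-number counts per gene and well for 7 plates of 384 wells, with no normalization. The submitters' processing notes name the aligner STAR 2.5.2b, the counter featureCounts 1.6.2 and the build GRCm38; use of strand is not given in the sources used here, so antisense neighbours cannot be told apart. In plate columns 1 and 2 some deposited counts of a well held those of another well added on; these were subtracted in 64 wells of the 2 regions, and 0 of 1960623 gene values fell below 0. Of 48587 gene rows, 716 share a symbol and were kept as separate rows; 92 spike-in rows stayed out of library sizes. Wells with at least 500 genes and at most 20% mitochondrial counts were summed per region and replicate. No doublet caller was run, as wells were sorted singly.

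edgeR 4.0.16 (R 4.3.3) fitted the 15 region samples of 3 weeks together, with TMM scaling, its filter on low counts over the 6 samples compared and robust quasi-likelihood tests. These were two-sided, and p-values were adjusted by Benjamini-Hochberg over every gene fitted, with 0.05 as the threshold. CPM use the scaled library size. The 17 alternatives included DESeq2 1.42.0. The scripts were tested on simulated data; Python 3.11.15 with pandas 2.3.3 made the sums. The text names genes past the threshold, the genes of smallest p without overlap and a mean of at least 20 CPM up to 10 per direction, and a fixed list of 20; 39 genes resulted, 36 of them tested. A gene past the threshold and some list members are not reported here. Further genes named under the lists were chosen after their values were seen, and the members and lists with earlier results of these data known. Counting error is all that shares of cells and their limits cover.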

Additional observations from a re-analysis of the deposited data

Results flagged for a closer look

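Among 64 groups of 4 region samples of 16 weeks, 5 held a sample far from the others, where chance gives about 1 in 20. For Rnf13 the lowest cortex sample had 286 CPM and the others 381 to 386. For Axl the highest corpus callosum sample had 60.5 CPM against 0.246 to 3.47 in the others, and the highest cortex sample 14 against 0 to 1.49. For Csf1r the highest corpus callosum sample had 16596 CPM against 12847 to 13210, and the lowest cortex sample 14090 against 14991 to 15086. The difference of corpus callosum from cerebellum was unlike that of cortex from hippocampus for Cst3, by a tested log2 value of 0.61 (adjusted p = 0.0419, edgeR).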

How the results depend on the processing

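The count of 3 genes between the regions became 9 with the counts as deposited, 6 without plate columns 1 and 2, 12 with no filter on low counts (28520 genes tested), 45 with cells thinned to equal reads and 123 in DESeq2. With only the 6 region samples it was 0 in edgeR (799 at an unadjusted p under 0.05). Leaving out a sample in turn gave 0 to 8 genes, with 877 to 1018 at an unadjusted p under 0.05; the cause was not tested. With a replicate block the 15 samples gave 11 genes and the 6 alone 0 (747 unadjusted). Same-numbered samples of the regions had correlations of 0.0250, 0.0223 and 0.0374, each the best for its number. Other pairings had −0.0269 to 0.0018. All were small, and whether a number stands for a mouse was not tested. As no label gives it, the main fit had no block. The contrast in which a plate term cancels went from 1 gene to 0 with the counts as deposited, with relative log expression size factors and with a replicate block (453, 606 and 630 unadjusted), and to 51 in DESeq2. The excess of 284.5 detected genes per cell fell to 6.67 with cells thinned to equal reads. The log2 difference of Cst7 turned sign to 0.10 as deposited and 0.079 with a replicate block on 6 samples, and ran from −0.73 to 1.03 with a sample left out (0.31 without corpus callosum sample 2). That of Cx3cr1 turned to −0.015 as deposited and ran from −0.032 to 0.12 with a sample left out (−0.023 without corpus callosum sample 2). Among the values of single named genes under alternatives, 516 kept direction and side of the threshold, 61 newly passed it, 23 no longer did and the 7 above reversed. A fit that left cerebellum sample 3 out of the spread, chosen after seeing the data, called 2 genes. Cortex had less than the depth of corpus callosum, which limits its scarce genes most.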
